A study of Homo sapiens with 6 samples.

Results

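The insulin-like growth factor (IGF) genes described here are 10 symbols among the 58735 genes of the deposited tables: the binding-protein genes IGFBP1 to IGFBP7, the ligand gene IGF2 and the receptor genes IGF1R and IGF2R. They were picked by symbol, and the group was proposed with results of the sgNF2-1 against sgCtrl comparison in view, so the members were chosen with their measured difference in that same comparison known. For that reason their differences are given as levels, fold changes and errors with no p-value, and where a member passed the rule for calls used for all genes, that is a description and not a test of the group. The 10 symbols match 11 identifiers, because IGF2 is listed under 2. Of the 10 genes, 8 passed the filter on low counts and 2, IGFBP1 and IGF2, were at 0 in every library.

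RNA sequencing was done on H2452, an established biphasic pleural mesothelioma line that carries a BAP1 mutation and a homozygous CDKN2A deletion in both groups. The cells had received a lentivirus with Cas9 and a guide RNA and were sorted as a population for the mCherry reporter: the guide was scrambled in sgCtrl (3 libraries, labelled wild type) and directed at NF2 in sgNF2-1 (3 libraries, labelled NF2-KO). All were grown in RPMI-1640 with serum, without further treatment. The contrast therefore rests on 1 line, 1 guide and a sorted population, and nothing in the labels says that libraries of a group came from separate cultures, so the errors and p-values measure only the spread between these libraries.

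IGF1 and IGF2 are small secreted growth factors that act through the receptor tyrosine kinase IGF1R, while IGF2R, the cation-independent mannose 6-phosphate receptor, carries IGF2 and lysosomal enzymes to the lysosome. IGFBP1 to IGFBP6 bind the ligands with high affinity outside the cell, can hold them away from IGF1R or release them on cleavage by proteases, and have actions of their own at the cell surface. IGFBP7 shares the amino-terminal domain and binds IGFs only weakly. In the mesothelium and its tumours, IGF signalling is known as a growth and survival input.

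The promoter sequences of some of the binding-protein genes are shown first. RefSeq windows on GRCh38.p14, from 250 bases before to 50 after an annotated start, existed for 7 of the 10 genes (9 windows); IGFBP1, IGFBP7 and IGF2 had no entry. Those of IGFBP3, which had the lowest sgNF2-1 level relative to sgCtrl, of IGFBP4, the most abundant and least altered, and of IGFBP5 and IGFBP6, which hold a TEAD motif, are printed 5′ to 3′ on the strand of the gene. TEAD factors are the DNA-binding partners of YAP and TAZ, which the NF2 product merlin restrains through the Hippo kinases. Capitals mark matches to CATTCC, the core of the TEAD motif, or to TATAAA, one form of the TATA box, on either strand. The reverse complement of CATTCC reads GGAATG. The positions are chr7:45921223-45921522 (minus strand) for IGFBP3, chr17:40443200-40443499 (plus) for IGFBP4, chr2:216695500-216695799 (minus) for IGFBP5 and chr12:53097417-53097716 (plus) for IGFBP6.
IGFBP3: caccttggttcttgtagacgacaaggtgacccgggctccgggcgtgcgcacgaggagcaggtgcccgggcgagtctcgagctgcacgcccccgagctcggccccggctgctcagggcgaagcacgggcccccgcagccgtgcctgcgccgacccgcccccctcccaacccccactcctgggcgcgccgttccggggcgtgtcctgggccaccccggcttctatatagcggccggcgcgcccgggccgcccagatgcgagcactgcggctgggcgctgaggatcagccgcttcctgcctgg
IGFBP4: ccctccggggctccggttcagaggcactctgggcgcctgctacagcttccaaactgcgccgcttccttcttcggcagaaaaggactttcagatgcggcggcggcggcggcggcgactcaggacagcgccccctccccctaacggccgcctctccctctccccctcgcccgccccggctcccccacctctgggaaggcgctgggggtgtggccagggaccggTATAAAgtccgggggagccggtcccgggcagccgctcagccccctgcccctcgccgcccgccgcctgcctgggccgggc
IGFBP5: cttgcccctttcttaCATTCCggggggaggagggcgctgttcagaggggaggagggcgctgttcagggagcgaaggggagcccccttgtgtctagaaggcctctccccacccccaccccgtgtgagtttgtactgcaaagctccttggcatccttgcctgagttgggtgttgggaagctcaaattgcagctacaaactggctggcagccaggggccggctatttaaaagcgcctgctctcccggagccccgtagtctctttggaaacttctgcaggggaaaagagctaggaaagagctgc
IGFBP6: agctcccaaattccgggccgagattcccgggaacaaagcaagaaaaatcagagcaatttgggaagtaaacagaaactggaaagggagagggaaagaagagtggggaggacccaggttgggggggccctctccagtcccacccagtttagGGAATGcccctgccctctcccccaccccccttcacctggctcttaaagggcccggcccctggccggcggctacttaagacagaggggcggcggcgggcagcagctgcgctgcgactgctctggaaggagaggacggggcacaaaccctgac

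CATTCC was found in 2 of the 9 windows, once each: in IGFBP5 with its first base at -235 from the start, on the gene's strand, and in IGFBP6 at -101 on the opposite strand. Of all 35116 RefSeq windows of this length, 14.0% hold it. TATAAA was found in 1 of the 9 windows, that of IGFBP4, at -29, against 11.5% of all windows. That motif was added after the data had been seen. Only exact matches were counted, so other forms of the TATA box, such as the tatata in the IGFBP3 window, were left out. The 2 motifs share no overlapping match here. The windows also differed in base composition, with a GC content of 74.7% for IGFBP3, 74.0% for IGFBP4, 61.7% for IGFBP6 and 59.0% for IGFBP5 beside a median of 58.7% over all windows, and with 79.7% for IGF1R and 78.7% for IGF2R. A match is a description of the letters, and no binding was measured in these libraries.

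The total count per library lay between 14782423 and 17416463. NF2 itself was measured at 73.7, 72.9 and 67.5 CPM (counts scaled to library size by the TMM method) in sgCtrl and at 39.3, 52.0 and 41.4 in sgNF2-1, and fell by 0.69 on the log2 scale (SE 0.10, edgeR's quasi-likelihood test, Benjamini-Hochberg adjusted p = 7.9e-06). Of 9 mesothelial markers, 6 reached at least 1 FPKM (fragments per kilobase of gene length, scaled to the mapped depth) in every library. The summed FPKM of the 9 was 728 to 816 in sgCtrl and 619 to 755 in sgNF2-1. Most of this sum came from the keratin genes KRT8 (216.3 to 291.3 FPKM over all libraries), KRT18 and KRT19. UPK3B lay at 0.321 to 1.01 FPKM, and KRT5 did not exceed 0.043. The markers did not move together. PDPN (16.4 to 18.0 against 6.20 to 8.20 FPKM) and KRT19 (210.9 to 241.7 against 105.9 to 138.8) were lower in sgNF2-1 without overlap. So were WT1 (1.94 to 2.57 against 0.979 to 1.31) and CALB2 (2.15 to 2.56 against 1.47 to 1.97). MSLN (12.2 to 14.3 against 18.9 to 23.7) and KRT18 (222.9 to 252.2 against 259.5 to 310.0) were higher without overlap. No lung epithelial, leukocyte or endothelial marker reached 1 FPKM, with NKX2-1 and PTPRC at 0; the endothelial sum was 0.771 to 1.09 in sgCtrl and 0.258 to 0.445 in sgNF2-1, and the part of these shifts in the results below was not tested. Over all 14179 tested genes, 17.7% were called by an adjusted p under 0.05 with a log2 fold change beyond 0.5: 9.32% lower and 8.42% higher in sgNF2-1, around a median log2 fold change of -0.0025.

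**Figure D1:**
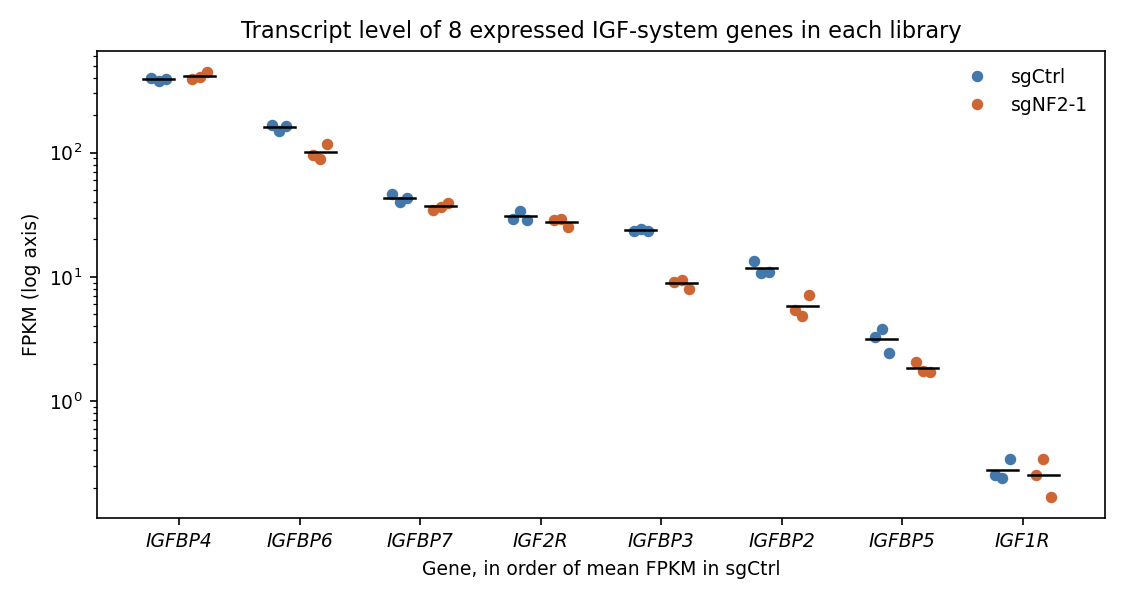
FPKM on a log axis of the 8 expressed genes in each library; points are libraries, 3 per group, and horizontal lines are group means. IGFBP4 lies at the top in both groups, and the sgNF2-1 points lie below all sgCtrl points for IGFBP6, IGFBP7, IGFBP3, IGFBP2 and IGFBP5.

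Set side by side per length, the 8 expressed genes covered over 3 orders of magnitude, from 391.5 ± 11.4 FPKM for IGFBP4 to 0.280 ± 0.056 for IGF1R in sgCtrl (SD, n = 3). IGFBP4 ranked 70 among all listed genes in sgCtrl and 64 in sgNF2-1. The order was the same in both groups: IGFBP4, IGFBP6, IGFBP7, IGF2R, IGFBP3, IGFBP2, IGFBP5 and IGF1R. In neither group did the libraries of one gene overlap in FPKM with those of the next in this order; the narrowest step in sgCtrl was the 1.29-fold one from IGF2R to IGFBP3, which was 3.11-fold in sgNF2-1. In TMM-scaled CPM, 5 of the 8 lay lower in sgNF2-1 without overlap between the groups and 0 lay higher; over all tested genes the shares without overlap were 22.2% lower and 23.2% higher. By the rule for calls, 4 of the 8 were lower and 0 higher, beside 9.32% and 8.42% of all tested genes. The median log2 fold change of the 8 was -0.44. Nothing is read from these counts, since the group was proposed with this contrast in view.

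IGFBP3, the main carrier of IGFs in the circulation, was 37.5% of its sgCtrl level in sgNF2-1. Its CPM was 113.6, 117.5 and 113.6 in the sgCtrl libraries and 44.6, 45.5 and 39.2 in the sgNF2-1 libraries. All 3 sgNF2-1 values lay far below the sgCtrl values, which differed among themselves by a coefficient of variation of only 1.93%. The log2 fold change was -1.41 (SE 0.09, 95% interval -1.59 to -1.23). The gene lies at chr7:45912245-45921874 on the minus strand (hg38), and its RefSeq start differs from the end of that span.

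IGFBP2, an RGD-containing binding protein often abundant in tumours, was 50.1% of its sgCtrl level in sgNF2-1. The sgCtrl libraries held 67.8, 53.9 and 55.6 CPM and the sgNF2-1 libraries 27.7, 24.6 and 36.4. The lowest sgCtrl library stood above the highest sgNF2-1 library, replicate 3. Its log2 fold change was -1.0004 (SE 0.12, 95% interval -1.25 to -0.75), and it ran from -1.17 to -0.88 as each library was left out in turn.

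IGFBP5, which binds extracellular matrix and is found on chromosome 2 beside IGFBP2, was the scarcest of the expressed binding proteins, at 3.18 ± 0.70 FPKM in sgCtrl and 1.83 ± 0.18 in sgNF2-1. Its CPM values were 22.5, 25.8 and 16.5 against 14.0, 12.0 and 11.7. The groups did not overlap, but sgCtrl replicate 3 stood close to the sgNF2-1 values, and the sgCtrl coefficient of variation was 21.8%. The log2 fold change of -0.78 (SE 0.15, 95% interval -1.08 to -0.48) ran from -0.93 to -0.63 as each library was left out in turn. An exonic stretch of 4.63% of the gene coincides with AC007563.2 on the other strand, and whether counting used strand is not given in the sources used here.

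IGFBP6, which prefers IGF2 over IGF1, was the second most abundant of the group and lost the most FPKM in absolute terms, from 160.3 ± 9.4 to 101.5 ± 15.1. In CPM it stood at 237.4, 212.1 and 233.4 in sgCtrl and at 138.5, 127.9 and 170.0 in sgNF2-1. The groups did not overlap, with sgNF2-1 replicate 3 the highest of its group. The log2 fold change was -0.65 (SE 0.09, 95% interval -0.84 to -0.45).

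IGFBP4, an inhibitory binding protein that is cleaved by PAPP-A, gave 931.8, 878.4 and 916.5 CPM in sgCtrl and 919.2, 945.1 and 1047 in sgNF2-1. These values overlapped, and sgNF2-1 replicate 3 was the highest of all 6. The log2 fold change was 0.09 (SE 0.08) with a 95% interval of -0.08 to 0.27. IGFBP7, a secreted protein deposited in vascular and tumour matrix, stood at 95.2, 82.1 and 88.4 CPM against 71.3, 75.4 and 81.0. The lowest sgCtrl value exceeded the highest sgNF2-1 value by a narrow margin. At -0.22 (SE 0.09, 95% interval -0.40 to -0.04), the log2 fold change of IGFBP7 was inside the limit of 0.5 used for calls. Of its exon bases, 18.9% coincide with IGFBP7-AS1 or POLR2B on the other strand.

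**Figure D2:**
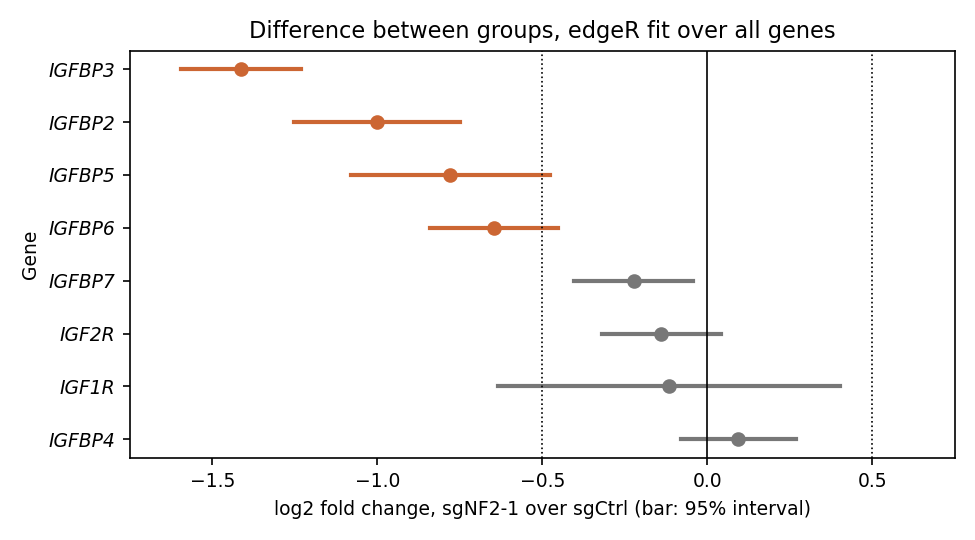
Log2 fold change of each expressed gene, sgNF2-1 over sgCtrl, from the edgeR fit over all tested genes (3 libraries per group); bars are 95% intervals, dotted lines mark 0.5 in each direction and orange marks genes past the rule for calls. IGFBP3 lies furthest left at -1.41, and the bars of IGFBP4, IGF1R and IGF2R span 0.

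IGFBP1, the liver and decidual binding protein, had no read in any of the 6 libraries. Its neighbour IGFBP3, 18.6 kb away on chromosome 7 and read from the other strand, was expressed throughout. At these depths a count of 0 allows up to 3 counts, or 0.172 to 0.203 CPM by library, for counting error only. The 2 other paired genes, IGFBP2 and IGFBP5, lie 7.67 kb apart on chromosome 2, on opposite strands, and both had lower values in sgNF2-1.

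The makeup of the binding-protein transcripts differed between the groups, while their sum overlapped. The FPKM of IGFBP1 to IGFBP6 added up to 608.9, 567.5 and 595.3 in sgCtrl and to 505.1, 510.1 and 581.6 in sgNF2-1. The mean was 590.6 ± 21.1 against 532.2 ± 42.8, or 90.1% of the sgCtrl mean. Without IGFBP4 the sum holds only IGFBP2, IGFBP3, IGFBP5 and IGFBP6, each already given as lower, so its lower level follows from leaving out IGFBP4: it was 207.5, 188.5 and 201.1 against 113.2, 105.5 and 135.3, or 59.3% of the sgCtrl mean. IGFBP4 made up 66.3% ± 0.44 of the sum in sgCtrl and 77.9% ± 1.32 in sgNF2-1. The share of IGFBP6 went from 27.1% ± 0.67 to 19.0% ± 1.41 and that of IGFBP3 from 4.04% ± 0.23 to 1.68% ± 0.26. These shares follow from the levels of the single genes given above and are no further result. A share of transcripts says nothing of secreted protein, which was not measured here, and in bulk libraries less RNA per cell cannot be told apart from fewer cells that express a gene.

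The ligand gene IGF2 (chr11:2129112-2149603 and chr11:2129112-2158658 for its 2 identifiers) was listed at 0 in every library. In GENCODE 29, 73.7% and 90.0% of the exon bases of the 2 identifiers are shared with each other, INS-IGF2 or AC132217.1 on the same strand, and INS-IGF2, shared over 100% of its exon bases, was also listed at 0. Of the protein-coding genes with 5% to under 95% of exon bases shared in this way, the range that holds both IGF2 identifiers, 16.6% of 2004 were at 0 in all libraries, beside 18.3% of the 17541 with under 5% shared. At 95% or more, the range that holds INS-IGF2, the share was 72.9% of 406. The range of IGF2 also holds genes with as little as 5% shared, and no narrower one was taken. Its 16.6% therefore need not hold at the sharing of IGF2. PIK3R2, a gene of the signalling list below, lies in the same range as IGF2, with 87.2% shared. It was also listed at 0 in every library. How the counting treated reads on shared exons is not given in the sources used here, and the part of the sharing in the IGF2 zeros was not tested. No fold change is given for IGF2. The other 9 genes share no exon base with another gene on the same strand.

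Of the receptors, IGF2R was well expressed. It stood at 551.9, 634.0 and 543.7 CPM in sgCtrl and at 543.2, 550.7 and 477.2 in sgNF2-1. The groups overlapped, with sgCtrl replicate 2 the highest and sgNF2-1 replicate 3 the lowest, and the log2 fold change was -0.14 (SE 0.09, 95% interval -0.32 to 0.04). IGF1R, the signalling receptor, had only 59, 58 and 77 reads in sgCtrl and 66, 78 and 36 in sgNF2-1. The groups overlapped and the libraries scattered widely, with coefficients of variation of 20.3% and 33.4% in CPM. Its log2 fold change of -0.12 (SE 0.25) had an interval from -0.63 to 0.40, and a difference inside it was not detectable in these libraries; the sign turned when sgCtrl replicate 3 or sgNF2-1 replicate 3 was left out, over a range of -0.37 to 0.10. Per length, IGF2R transcripts exceeded those of IGF1R 113-fold in sgCtrl and 115-fold in sgNF2-1, with an SD of 28.3 and 31.2.

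The other genes of the IGF system were taken in 7 lists of 68 genes, of which 52 were tested; the lists were drawn up with earlier results of these data known. Together 6 were called higher and 14 lower, 38.5% beside the 17.7% of all tested genes, with a median log2 fold change of -0.09. Adjusted p-values below are from edgeR's quasi-likelihood test over all tested genes.

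Among 13 IGFBP proteases and their inhibitors, 11 were tested, 2 rose and 7 fell, with a median log2 fold change of -0.83. MMP2, the gelatinase that can cleave IGFBP3 and IGFBP5, fell by 2.64 on the log2 scale, from 106.9 ± 4.6 to 17.1 ± 0.77 CPM (adjusted p = 7.8e-16). The complement protease gene C1S, whose product cleaves IGFBP5, fell by 0.99 (adjusted p = 2.9e-09), and the serine protease gene HTRA1 fell by 0.83 (adjusted p = 1.1e-08). The stanniocalcins, inhibitors of PAPP-A, moved apart: STC2 rose from 196.1 ± 14.2 to 485.7 ± 14.2 CPM, by 1.31 (adjusted p = 1.1e-11), while STC1 fell by 1.75 from a level of 1.24 ± 0.58 CPM (adjusted p = 0.0074, and 0.076 without sgCtrl replicate 3). PAPPA, which encodes the IGFBP4 protease, was low, at 1.18 ± 0.56 and 1.31 ± 0.35 CPM, with a log2 fold change of 0.18 (adjusted p = 0.77). PAPPA2, the other gene of this list called higher, rose by 0.63, from 10.6 ± 0.04 to 16.5 ± 1.43 CPM (adjusted p = 0.00055).

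Downstream of IGF1R and the insulin receptor, 20 of 22 genes were tested, 3 rose and 3 fell, around a median log2 fold change of -0.06. The suppressors of cytokine signalling, feedback inhibitors of this and other receptors, did not move together. SOCS2 rose by 2.24, from 1.36 ± 0.61 to 6.51 ± 1.03 CPM (adjusted p = 7e-07), whereas SOCS1 fell by 1.41 (adjusted p = 8.2e-07) and SOCS3 fell by 0.81 (adjusted p = 6.2e-07). GRB10, an adaptor that restrains both receptors, rose by 0.92 (adjusted p = 1.1e-08). Of the docking proteins, IRS2 rose by 0.60 (adjusted p = 0.00039), a value that was 0.46 without sgCtrl replicate 3 and then below the fold limit, and IRS1 gave 0.02 (adjusted p = 0.96).

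**Figure D3:**
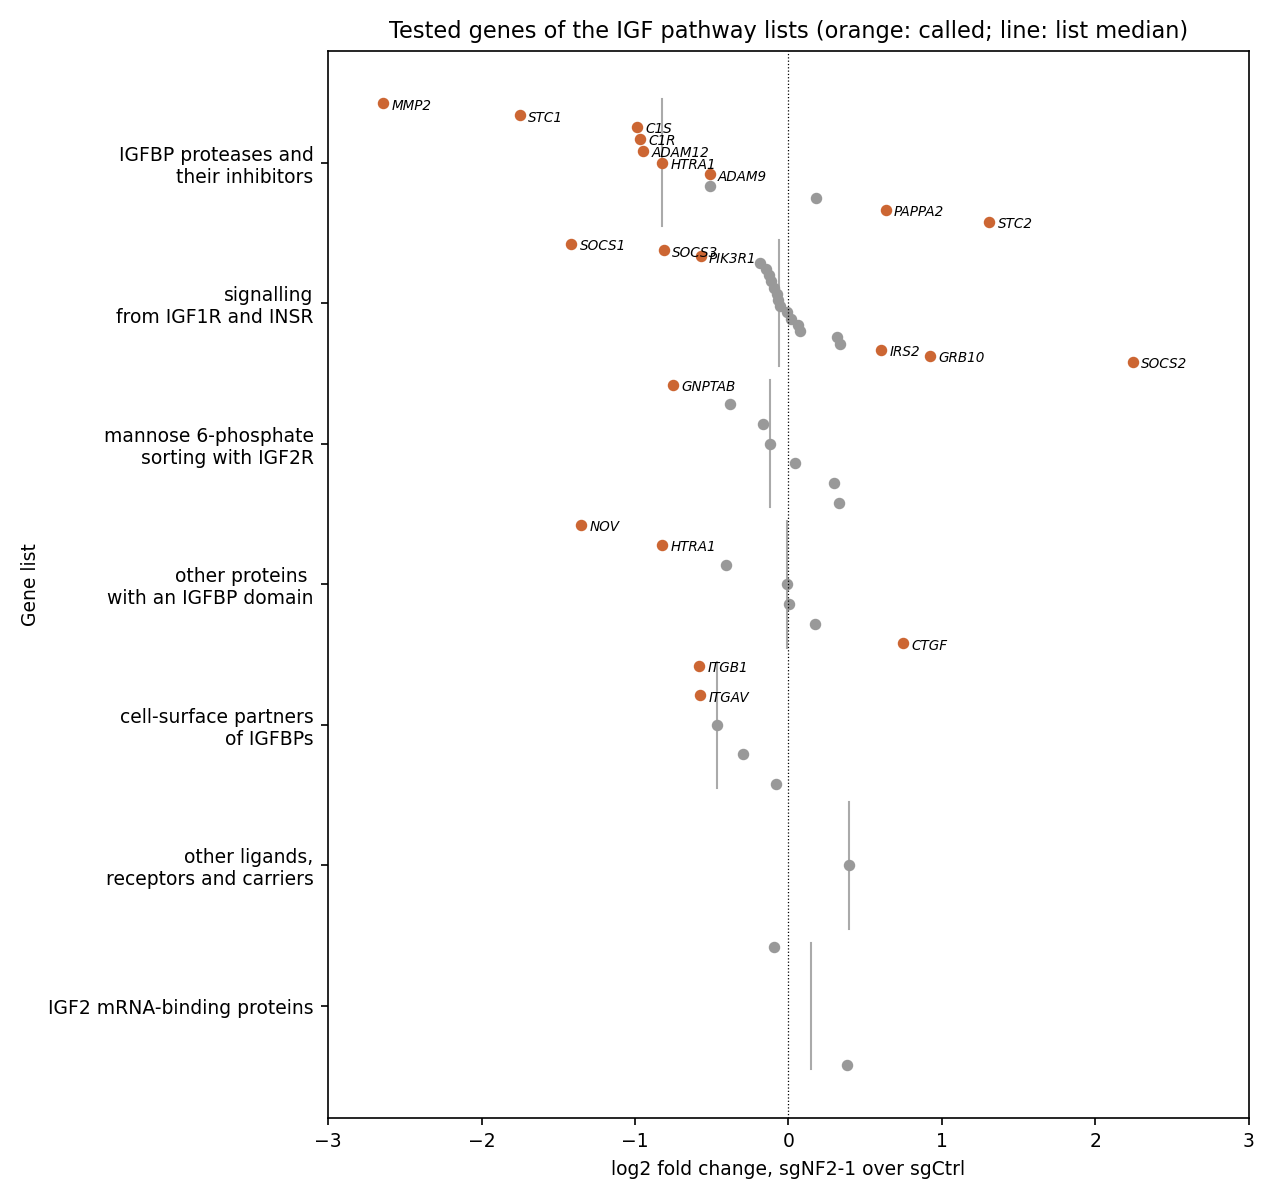
Log2 fold change, sgNF2-1 over sgCtrl, of each tested gene of the 7 pathway lists; orange points with names passed the rule for calls, and grey lines are list medians. The list of proteases and inhibitors has its median at -0.83, with STC2 and PAPPA2 the called genes on its right side; the list of signalling genes is centred near 0 with calls on both sides. HTRA1 is in both the first and the fourth list.

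Of the ligands, receptors and carriers that are not members, 1 of 6 was tested. INSR, the insulin receptor, which forms hybrids with IGF1R, gave 13.04 ± 1.53 and 17.2 ± 1.4 CPM, a log2 fold change of 0.40 below the fold limit (adjusted p = 0.022, between 0.057 and 0.081 on leaving out any of 4 libraries). IGF1 had 2 reads in all. Of the 2 tested IGF2 mRNA-binding proteins, neither passed both limits of a call: IGF2BP2 passed that on the adjusted p (0.0011, edgeR) with a log2 fold change of 0.38, under the fold limit.

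In the mannose 6-phosphate sorting list, which serves IGF2R, 1 of 7 genes was called. GNPTAB, a subunit gene of the enzyme that begins the mannose 6-phosphate tag, fell by 0.75 (adjusted p = 1.8e-06), and the list median was -0.12. Of 7 tested genes for other proteins with an IGFBP domain, 1 rose and 2 fell around a median of -0.01. Among them the CCN genes moved in different directions: CTGF rose by 0.74 (adjusted p = 7.6e-06), NOV fell by 1.35 (adjusted p = 3.7e-05) and CYR61 gave 0.18 (adjusted p = 0.12, and 0.031 without sgNF2-1 replicate 3). Of 5 tested genes for cell-surface partners of the binding proteins, 2 fell, and all 5 had a fold change below 0 on the log2 scale, with a median of -0.47. ITGB1, the integrin beta-1 gene, fell by 0.58 (adjusted p = 1.2e-05) and ITGAV, the integrin alpha-V gene, fell by 0.57 (adjusted p = 7.7e-06).

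The nearest tested genes on the chromosomes of the members moved both ways, with more called lower than higher. Some of them lie far off, up to 8460 kb for a neighbour of IGFBP7. Of 18 tested genes that were nearest neighbours or overlapped a member and were not members, 2 were called higher, 5 lower and the rest neither. Their median log2 fold change was -0.31. Over all tested genes, 8.42% were called higher and 9.32% lower, around a median of -0.0025. SPRYD3, 18.0 kb from IGFBP6, rose by 0.71 (adjusted p = 2.8e-06) while IGFBP6 was lower. NOA1, 52.0 kb from IGFBP7, rose by 0.60 (adjusted p = 1e-04). CSAD, on the other side of IGFBP6, fell by 1.10 (adjusted p = 0.00037), and SYNM, 134 kb from IGF1R, fell by 1.09 (adjusted p = 1e-06). AL353625.1, a pseudogene inside IGF2R, fell by 1.11 (adjusted p = 0.011, but 0.052 and 0.056 without sgCtrl replicate 2 and sgNF2-1 replicate 1). The 2 remaining ones, TNS1 and TNS3, fell as well and lie 1100 kb from IGFBP5 and 1350 kb from IGFBP3.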

How the data were processed

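For 6 libraries the authors deposited tables of unnormalized counts and of FPKM, made from total RNA with a NEBNext Ultra kit and sequenced as 150 bp paired reads. The submitters' processing notes name HISAT2, StringTie 1.3.3b, featureCounts 1.5.0-p3 and hg38, without their roles; the strand setting is not given in the sources used here. The study's methods name DESeq2. The deposited FPKM equal count per gene length and library depth, so they are no independent measure. All 58735 identifiers and positions match GENCODE 29. Groups and replicate numbers came from the sample titles.

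Counts were filtered with filterByExpr (minimum count 10, minimum total 15), scaled by TMM and fitted in edgeR 4.0.16 (quasi-likelihood, group only; R 4.3.3), with Benjamini-Hochberg adjustment over 14179 genes. A call needed a log2 fold change beyond 0.5 and an adjusted p below 0.05. CPM are TMM-scaled. FPKM served for levels between genes, and log2(FPKM + 1) for differences. The members and lists were chosen with earlier results of these data known. Named genes were all members, the called genes of each list (up to the 4 with the largest change) and the called neighbours. NF2, INSR, IGF1, IRS1, IRS2, PAPPA, CTGF and CYR61 were named as well. IGF2BP2, PAPPA2, PIK3R2, WISP2, the tensins and the other genes named in a plot were added after their values were seen. The procedure was tested on simulated data. As alternatives, the replicate number was added as a block, each library was left out, DESeq2 1.42.0 was run, edgeR was scaled by library totals or by the DESeq2 size factors, the filter was dropped or raised to 10 counts per library, and other call rules and a pseudocount of 0.1 were tried. Protein sequences were not analysed here. Motif searches covered RefSeq windows on GRCh38.p14 by symbol.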

Additional observations from a re-analysis of the deposited data

How the results depend on the processing

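The count of 4 members lower and 0 higher was the same in all 14 alternatives, and 94 of 96 member fold changes under alternatives kept their sign; both exceptions were IGF1R with 1 library left out. With an adjusted p and no fold limit, 2515 genes were higher and 2351 lower in place of 1194 and 1322, and 11 list genes were higher in place of 6. With a pseudocount of 0.1 in place of 1, the log2 FPKM difference was -1.42 for IGFBP3, -0.74 for IGFBP5 and -0.12 for IGF1R, in place of -1.34, -0.55 and -0.03, since the larger pseudocount understates low genes. IRS1 (0.02) turned to -0.0136 with library totals, and to -0.13 without sgCtrl replicate 3 and -0.10 without sgNF2-1 replicate 2, within a leave-one-out range of -0.13 to 0.16; PAPPA (0.18) turned to -0.11 without sgCtrl replicate 2 and -0.07 without sgNF2-1 replicate 1, within -0.11 to 0.60. The cause was not tested. Calls were also lost for ADAM9 with no filter or without sgNF2-1 replicate 3 (log2 fold changes of -0.50 and -0.46) and for PIK3R1 without sgCtrl replicate 2 or sgNF2-1 replicate 1 (adjusted p of 0.075 and 0.081 by edgeR), WISP2 gained a call as lower without sgCtrl replicate 1 (-0.54, adjusted p of 0.041), and STC1 was not tested with at least 10 counts in every library. Leaving out each library in turn gave 1082 to 1266 genes higher and 1140 to 1369 lower, and list genes of 5 to 6 higher and 13 to 15 lower. Replicate numbers are shared by the groups, and the labels do not say whether they pair the samples. Deviations of same-numbered libraries had correlations of -0.03, 0.06 and 0.05. These values show no pairing but cannot exclude one, since counting error lowers such a correlation. With the replicate block, 1186 genes were higher and 1316 lower, the members' count stayed at 4 lower and IGFBP3 was at -1.42. IGF1R, PAPPA and STC1 had few reads, and whether depth or the spread between libraries limits their precision was not tested.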

Other observations

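The tensins are focal adhesion proteins that link integrins to actin, and the family was picked after its values had been seen. Their genes lie on chromosome 2 (TNS1, with IGFBP2 and IGFBP5) and chromosome 7 (TNS3, with IGFBP1 and IGFBP3). TNS2 is on chromosome 12 with IGFBP6, and TNS4 is on chromosome 17 with IGFBP4. TNS2 lies 33.1 kb from IGFBP6 and TNS4 lies 18.1 kb from IGFBP4, while TNS3 and TNS1 lie 1350 kb and 1100 kb from IGFBP3 and IGFBP5. TNS1 fell from 8.42 ± 1.13 to 2.24 ± 0.72 CPM, by 1.89 on the log2 scale (edgeR, adjusted p = 3.8e-07). TNS2 stood at 69.4, 69.2 and 63.5 CPM in sgCtrl and 40.1, 43.6 and 40.7 in sgNF2-1 and fell by 0.70 (edgeR, adjusted p = 1.4e-06), and TNS3 fell by 0.62 (edgeR, adjusted p = 2.4e-06). TNS4 went the other way, from 3.74 ± 0.57 to 6.01 ± 0.69 CPM, and rose by 0.68 (edgeR, adjusted p = 0.012). TNS1, TNS2 and TNS3 were lower, and so were IGFBP2, IGFBP3, IGFBP5 and IGFBP6 on their chromosomes. IGFBP1, also on the chromosome of TNS3, was at 0 in every library. TNS4, on the chromosome of IGFBP4, whose groups overlapped, was higher. SPRYD3 lies 18.0 kb from IGFBP6, closer than TNS2, and rose by 0.71 (edgeR, adjusted p = 2.8e-06). No test of the tensin arrangement was made.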
